A study of Citrus maxima with 12 samples.

Results

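Diseased fruit of the pomelo cultivars Jinlan and Jinsha was compared by RNA sequencing, with 3 libraries of fruit with yellow spot disease from each cultivar. These 6 libraries are the diseased libraries among 12 from Citrus maxima fruit. The other 6 are control fruit, again 3 libraries from each cultivar, and serve here to show how the cultivars stood without the disease. The labels give the cultivar, the treatment and fruit as the tissue, but neither the agent of the disease, the part of the fruit, nor whether the replicates were separate fruits or trees. The p-values therefore measure only the spread between these libraries, which may be technical. Expression was deposited as FPKM, a measure of a gene's sequenced fragments that corrects for its length and for how much was mapped in each library, for 32863 gene identifiers. A gene was tested where 3 or more of the 6 diseased libraries reached 1 FPKM, which held for 16516 genes. A further 7951 identifiers had values above 0 in diseased fruit without reaching this level, and 8396 were listed at 0 in all 6 diseased libraries.

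Plants meet disease with receptors at the cell surface and inside the cell, with hormone signals such as salicylic acid, jasmonic acid and ethylene, and with products such as pathogenesis-related proteins, lignin and flavonoids. Cultivars of one species can carry different receptor genes and can turn on these responses at different times and strengths. Sound and diseased tissue of a fruit also differ in the mix of living, dying and stressed cells, and in bulk RNA fewer cells of a type and less RNA per cell cannot be told apart. The table pairs no identifier with a name or a product. No function is therefore attached to any gene here, and the fruit label could not be set against tissue markers.

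Within each cultivar the diseased libraries resembled each other closely. The median SD between replicates was 0.083 in Jinlan and 0.086 in Jinsha on the log2(FPKM + 1) scale, and a spread of 2-fold or more within a group was found for 95 and 86 genes. Pearson's r over the tested genes was 0.9914 to 0.9948 within diseased Jinlan, 0.9931 to 0.9937 within diseased Jinsha and 0.9180 to 0.9286 between them. A first principal component with 88.9% of the variance of the 6 libraries separated the cultivars, and the second, with 3.60%, set Jinlan disease replicate 3 (16.4) furthest from the other libraries (-9.60 to 5.16). On the line between the cultivars this library lay 0.073 of the way towards Jinsha, and the other 5 between -0.009 and 0.043. Among control fruit, used here only beside the diseased values, earlier results of these data had set Jinlan control replicate 3 apart from its group. Where leaving out either library changes a call or moves a count by over 1.5 times, the value without it is given beside that result.

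The cultivars had clearly different transcript profiles in diseased fruit. At least 2-fold differences were called for 1795 genes, of which 1174 were higher in Jinlan and 621 lower. These are 7.11% and 3.76% of the genes tested. A gene is called where its Benjamini-Hochberg adjusted p from limma, a linear model fitted to all genes, is below 0.05. On the log2(FPKM + 1) scale, which understates the differences of genes with low levels, the median difference was 1.36 among the 1174 genes and -1.34 among the 621. The range over all tested genes ran from -5.76 to 4.91. Jinlan disease replicate 3 was the Jinlan library nearest to Jinsha for 52.6% of the 1174 and 48.1% of the 621 genes, and without it 1239 genes were 2-fold higher and 641 lower. With a pseudocount of 5 the counts were 590 and 335, and with limma's treat, which tests whether a difference is past 2-fold, they were 552 and 299.

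The balance between the directions turned with the size of the difference. At 4-fold or more, 189 genes were higher in Jinlan and 118 lower. At 8-fold or more the numbers were 33 and 34, and at 16-fold or more 3 and 14. The few most extreme differences thus lay more often on the Jinsha side, while 2-fold differences lay more often on the Jinlan side.

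Smaller differences were common and leaned the other way. At any fold, 4755 genes (28.8%) were called higher in diseased Jinlan and 6564 (39.7%) lower, so that 68.5% of the tested genes were called in all. Of these calls 84.1% were under 2-fold, and the median absolute log2 difference of the called genes was 0.49. The 3 Jinlan libraries lay above the 3 Jinsha libraries without overlap for 30.2% of the tested genes and below them for 41.8%. The size of this lean depended on scaling: the median log2 difference over all tested genes was -0.08 with FPKM as deposited and also with libraries scaled to a common sum, -0.07 after quantile normalization and -0.01 after median-ratio scaling. The any-fold calls were 4796 higher and 6591 lower with a common sum, 4965 and 6365 after quantile normalization, and 5441 and 5720 after median-ratio scaling. Absence of overlap was near complete among the 2-fold genes, at 1168 of the 1174 higher and all 621 lower genes, where the call itself nearly ensures it.

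**Figure D1:**
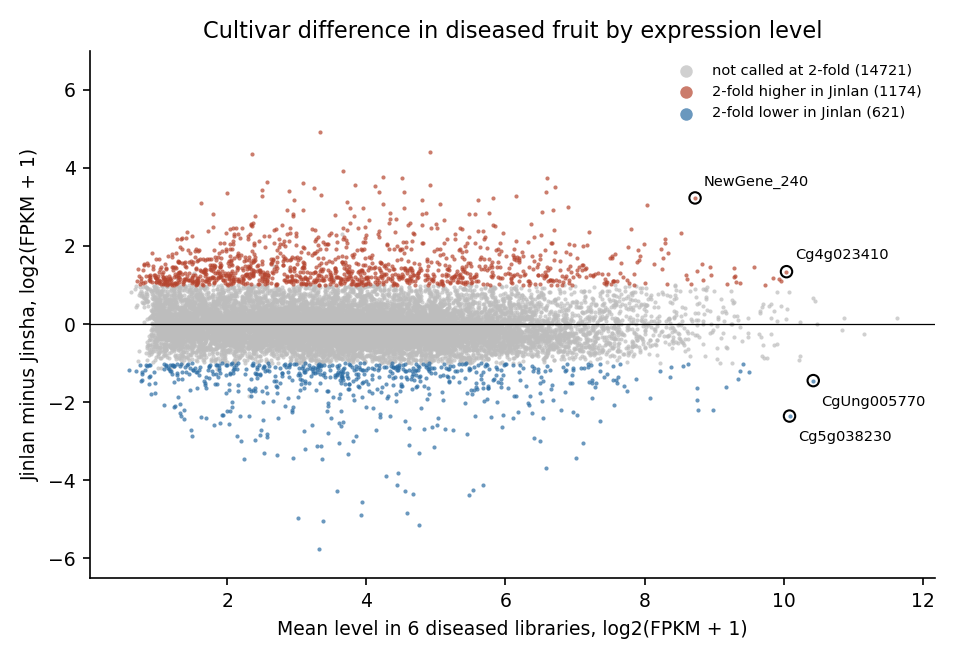
Difference between diseased Jinlan and diseased Jinsha fruit for 16516 genes (vertical axis, log2 FPKM + 1, Jinlan minus Jinsha) against the mean level in the 6 diseased libraries (horizontal axis, same scale). Each point is a gene, with 1174 genes 2-fold higher in Jinlan in red and 621 lower in blue, and the 4 circled genes have the largest differences in FPKM; 2-fold differences are found at low and at high levels.

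Genes of high level differed at least as often as genes of low level. Among the 1109 genes with a mean of at least 100 FPKM in the diseased libraries, 136 (12.3%) were 2-fold higher in Jinlan and 79 (7.12%) lower. Among the 4940 genes from 20 to 100 FPKM the shares were 6.52% and 4.01%, and among the 6135 genes from 5 to 20 FPKM they were 6.06% and 3.41%. Below 5 FPKM, where the added 1 shrinks differences most, they were 7.94% and 3.12% of 4332 genes. The shares were described and not tested against each other. The 20 most abundant genes of each cultivar took 5.56 ± 0.05% of the total FPKM in diseased Jinlan and 5.50 ± 0.02% in diseased Jinsha (SD, n = 3), but only 8 genes were in both sets. Of the Jinlan set 7 were 2-fold higher in Jinlan, and of the Jinsha set 5 were 2-fold lower in Jinlan.

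The largest difference in FPKM on the Jinsha side belonged to Cg5g038230. It stood at 2334, 2561 and 2482 FPKM in diseased Jinsha replicates 1 to 3 and at 482, 514 and 444 FPKM in diseased Jinlan. The lowest Jinsha library was several times above the highest Jinlan library. The means were 2459 ± 115 and 480 ± 34.8 FPKM (SD, n = 3), a ratio of 5.13, with a log2 difference of -2.36 (SE 0.10, adjusted p = 6.16e-10, limma). In control fruit the cultivars were close, at 1043 ± 105 FPKM in Jinsha and 916 ± 90.7 FPKM in Jinlan, and the difference was not called (log2 difference -0.19, adjusted p = 0.11). It was called at -0.36 after quantile normalization and at -0.26 without replicate 2 of either control group. The diseased libraries thus lay on opposite sides of both control groups.

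The second gene on this side was CgUng005770, at 2156, 2312 and 2355 FPKM in diseased Jinsha and 845, 871 and 783 FPKM in diseased Jinlan. The groups did not overlap, and the log2 difference was -1.45 (SE 0.07, adjusted p = 3.42e-09). In control fruit its order was the opposite, with 1410 ± 39.0 FPKM in Jinlan above 1043 ± 41.3 FPKM in Jinsha (log2 difference 0.44, adjusted p = 0.000224, n = 3 per group, limma).

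On the Jinlan side the largest difference in FPKM was that of NewGene_240. Its values were 1315, 1522 and 1089 FPKM in diseased Jinlan and 132, 145 and 135 FPKM in diseased Jinsha. Every Jinlan library was far above every Jinsha library, by 9.53 times between the means, although the Jinlan libraries differed more among themselves. The log2 difference was 3.23 (SE 0.45, adjusted p = 2.98e-05, limma). This SE rests on the spread within all 4 groups, controls included, and is the same for the control difference. In control fruit Jinsha stood at 112, 115 and 101 FPKM and Jinlan at 69.5, 40.7 and 252 FPKM. Jinlan control replicate 3 was the high one there, and the control difference depended on it: it was not called with all libraries (-0.29, adjusted p = 0.603), was called at -1.03 without that library, and was 0.27 and not called without Jinlan control replicate 2.

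Cg4g023410 had the second largest difference in FPKM on the Jinlan side, with 1718, 1740 and 1578 FPKM in diseased Jinlan against 616, 692 and 679 FPKM in diseased Jinsha. The groups were well apart, at a log2 difference of 1.34 (SE 0.08, adjusted p = 1.98e-08, limma). It was also higher in Jinlan in control fruit, at 1068 ± 76.5 against 790 ± 53.9 FPKM (SD, n = 3), with a smaller log2 difference of 0.44 (adjusted p = 0.000588, limma).

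The 2-fold genes, 10.9% of the genes tested, were also described by their share of the total FPKM of each library. The 1174 genes higher in Jinlan took 14.8%, 15.3% and 14.0% of the total FPKM of diseased Jinlan libraries 1 to 3, and 4.98%, 5.21% and 4.97% of that of diseased Jinsha. The 621 genes lower in Jinlan took 2.76%, 2.76% and 2.88% in Jinlan and 8.63%, 8.63% and 8.76% in Jinsha. These genes were chosen by the same comparison, so the shares give their weight and are no test. In control fruit, whose levels were not part of the diseased difference although its libraries entered the estimate of spread, the cultivars were closer: the 1174 genes took 8.85 ± 0.56% in Jinlan and 7.33 ± 0.24% in Jinsha, and the 621 genes 4.76 ± 0.18% and 5.54 ± 0.06% (SD, n = 3). Genes chosen for a gap in diseased fruit tend to have a smaller gap elsewhere, so the control shares are a description too.

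The control levels of the 2-fold genes lay between those of the diseased groups. The genes were chosen for a gap between the diseased groups, which by itself tends to place the controls in between, so this is a description. For the 1174 genes higher in Jinlan, the median level over genes was 4.35 on the log2(FPKM + 1) scale in diseased Jinlan and 2.72 in diseased Jinsha, with control Jinlan (3.67) and control Jinsha (3.49) in between. For the 621 genes lower in Jinlan it was 3.02 in diseased Jinlan and 4.66 in diseased Jinsha, with 3.72 and 4.01 in the controls. Over all tested genes the 4 groups lay between 3.70 and 3.84.

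Gene by gene, all control libraries lay between the diseased groups for only 28.6% of the 1174 genes and 26.9% of the 621. Among the 1174 genes higher in Jinlan, the 3 diseased Jinlan libraries lay above all 9 others for 479, the 3 diseased Jinsha libraries lay below all 9 others for 287, and both held for 336. Neither held for 72 genes. Diseased Jinlan thus lay above all others for 815 genes, which became 930 without Jinlan disease replicate 3. Among the 621 genes lower in Jinlan, diseased Jinlan alone stood below the others for 207, diseased Jinsha alone stood above them for 199, both held for 167 and neither for 48. These orders use the libraries that chose the genes and are given as a description. Over all tested genes diseased Jinlan lay above all other libraries for 15.1% and below them for 18.2%, and diseased Jinsha below them for 11.0% and above them for 16.2%.

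**Figure D2:**
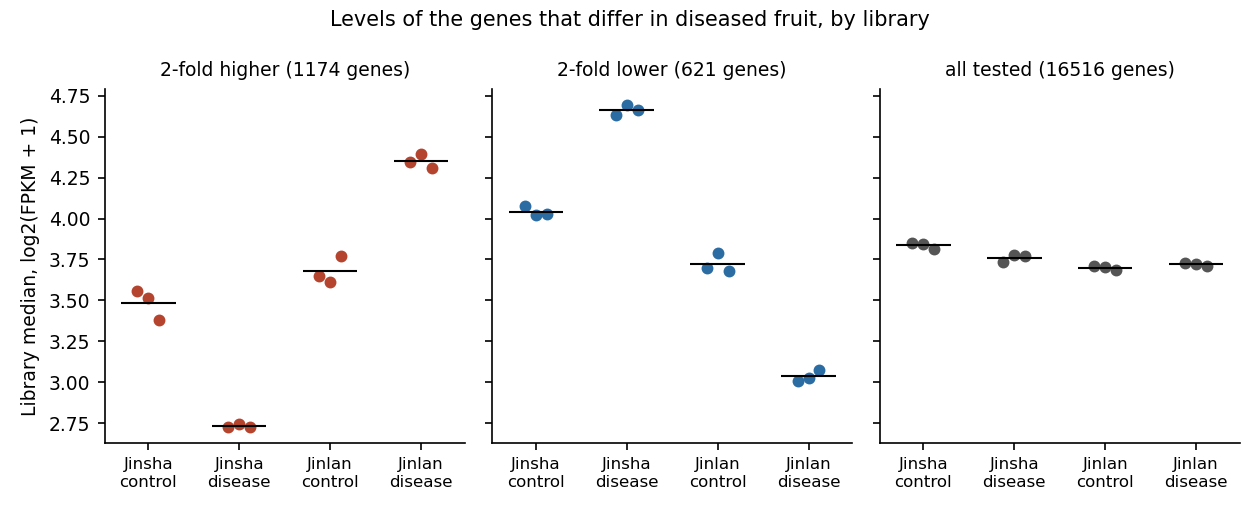
Median level of the genes 2-fold higher in diseased Jinlan (left), 2-fold lower (middle) and of all tested genes (right), in log2(FPKM + 1). Each point is a library and each line the mean of 3 libraries; for both gene sets the control libraries of either cultivar lie between the diseased libraries, while all tested genes stay between 3.68 and 3.85.

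Few genes went from clear expression to near absence between the cultivars. In diseased fruit 11 genes were at 5 FPKM or more in every Jinlan library and below 1 FPKM in every Jinsha library, with a median of 8.62 FPKM in Jinlan. Another 14 had the reverse pattern, with a median of 9.98 FPKM in Jinsha and up to 73.2 FPKM. None of these 25 genes was listed at 0 in all 3 libraries of the lower cultivar. None met the same thresholds in the same direction in control fruit. There 4 genes met them on the Jinlan side and 2 on the Jinsha side. None of the 11 genes was at 5 FPKM or more in every Jinsha control library, so these 2 are not among the 11. Of the 14 genes, only 2 were at 5 FPKM or more in every Jinlan control library, and whether they are among the 4 was not counted.

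The 2 classes differed in what control fruit of the expressing cultivar showed. Of the 11 Jinlan genes, 8 were at 1 FPKM or more in every Jinlan control library and none was below 1 FPKM in all 3. Of the 14 Jinsha genes, 8 were below 1 FPKM in every Jinsha control library, while 5 were at 1 FPKM or more in all 3. Control fruit of the other cultivar also expressed part of these genes. Of the 11 Jinlan genes, 4 were at 1 FPKM or more in every Jinsha control library. Of the 14 Jinsha genes, 8 were at 1 FPKM or more in every Jinlan control library, and 2 at 5 FPKM or more. The difference between these counts was not tested, and the 11 became 17 without Jinsha disease replicate 2 and 18 with the libraries scaled to a common sum. The 14 became 17 without Jinlan disease replicate 3.

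Whether the cultivars already differed in control fruit was then asked of the same 16516 genes. The control libraries give none of the diseased levels, but they enter the spread behind the diseased calls, since all 12 libraries were fitted together. In control fruit 325 genes (1.97%) were 2-fold higher in Jinlan and 487 (2.95%) lower, and at any fold 21.1% were higher and 36.9% lower. This lean towards lower values was kept with libraries scaled to a common sum (374 higher and 611 lower at 2-fold) but not under the other scalings, with 401 higher and 383 lower at 2-fold and 4744 and 4625 at any fold after median-ratio scaling, and 395 and 395, and 4643 and 4594, after quantile normalization. Without Jinlan control replicate 3 the 487 became 562. Of the 1174 genes 2-fold higher in diseased Jinlan, 128 were also 2-fold higher in control Jinlan, which is 10.9% of the diseased list and 39.4% of the control list. Of the 621 genes lower in diseased Jinlan, 100 were also 2-fold lower in control Jinlan, 16.1% of the diseased and 20.5% of the control list. The shares of the diseased lists stand beside 1.97% and 2.95% among all tested genes, and those of the control lists beside 7.11% and 3.76%. Both comparisons use the same estimate of each gene's spread.

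Most genes of both lists lacked a 2-fold difference in control fruit, and so did most of all tested genes. Among the 1174 genes, 395 were higher in control Jinlan by less than 2-fold, 401 were not called, 206 were lower by less than 2-fold and 44 were 2-fold lower. Among the 621 genes, 214 were lower by less than 2-fold, 180 were not called, 90 were higher by less than 2-fold and 37 were 2-fold higher. Genes not called made up 34.2% of the 1174 and 29.0% of the 621, against 41.9% of all tested genes. Those higher by less than 2-fold made up 33.6% and 14.5%, against 19.2% of all tested genes. Those lower by less than 2-fold made up 17.5% and 34.5%, against 34.0%. The median control difference was 0.20 for the 1174 genes and -0.28 for the 621, against -0.09 for all tested genes.

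The change of the cultivar difference from control to diseased fruit was tested as an interaction, the log2 difference in diseased fruit minus that in control fruit. Over all tested genes 31.6% were called upwards and 27.7% downwards, and 8.92% and 4.22% at 2-fold. The any-fold balance turned to 4564 upwards and 5348 downwards after quantile normalization and was 4998 and 4887 after median-ratio scaling. Of the 1174 genes higher in diseased Jinlan, 1058 had an interaction called upwards, 16 downwards and 100 not called. Of the 621 lower genes, 520 had one called downwards, 14 upwards and 87 not called. The diseased libraries enter both tests, so these high shares partly follow from how the genes were chosen. Of the 128 genes 2-fold higher in Jinlan in both conditions the interaction was not called for 53, and of the 100 genes lower in both for 52.

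A small set of genes had opposite 2-fold differences in control and diseased fruit. In 44 genes Jinlan was lower in control and higher in diseased fruit, and in 37 it was higher in control and lower in diseased fruit. All had an interaction called at 2-fold, which the choice of opposite 2-fold differences nearly ensures. The 44 are 3.75% of the 1174 genes, near the 2.95% of all tested genes that were 2-fold lower in control Jinlan, and the 37 are 5.96% of the 621 genes, beside 1.97% of all tested genes that were 2-fold higher there. The 44 became 70 without Jinlan control replicate 3, 79 without both Jinlan replicate 3 libraries, 17 with a pseudocount of 5 and 1 with treat in both conditions. The 37 became 16 with a pseudocount of 5 and 15 with treat, and ranged from 34 to 39 when any 1 library was left out.

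Cg4g007640 had the widest reversal. Diseased Jinsha libraries stood at 68.2, 78.7 and 73.4 FPKM and diseased Jinlan libraries at 1.38, 1.60 and 3.97 FPKM. In control fruit the third Jinsha library had a listed value of 0 and the others 0.278 and 0.392 FPKM, and Jinlan was at 32.3, 34.1 and 28.7 FPKM. No library of one cultivar overlapped the other in either condition. The log2 difference between Jinlan and Jinsha went from 4.75 (SE 0.22, adjusted p = 7.24e-09) in control to -4.57 (SE 0.22, adjusted p = 2.49e-09, limma) in diseased fruit.

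Cg4g009330 followed the same course at similar levels, with 65.2, 82.3 and 65.0 FPKM in diseased Jinsha and 6.59, 6.65 and 8.98 FPKM in diseased Jinlan. Its control values were 1.18, 2.01 and 0.628 FPKM in Jinsha and 31.5, 32.2 and 29.7 FPKM in Jinlan. The log2 differences were 3.87 in control and -3.10 in diseased fruit (SE 0.18 for both, adjusted p = 8.45e-09 and 1.31e-08, limma).

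The opposite course was taken by NewGene_1879 and Cg5g002560, both lower in Jinlan in control and higher in diseased fruit. NewGene_1879 was at 58.2, 75.7 and 41.1 FPKM in diseased Jinlan and 13.7, 12.9 and 11.4 FPKM in diseased Jinsha, and at 5.44, 4.33 and 11.3 FPKM in control Jinlan and 28.8, 29.4 and 22.4 FPKM in control Jinsha. Its log2 difference was -1.88 in control (adjusted p = 6.22e-05) and 2.08 in diseased fruit (adjusted p = 1.49e-05, SE 0.27 for both, limma). Jinlan control replicate 3 was again the highest of its group, and Jinlan disease replicate 3 the lowest of its group, as also for Cg5g002560. For Cg4g007640 and Cg4g009330 Jinlan control replicate 3 was the lowest of its group and Jinlan disease replicate 3 the highest. In each of these genes both libraries thus lay nearest to the other condition of Jinlan. Cg5g002560 was at 20.6, 17.6 and 12.9 FPKM in diseased Jinlan and 2.31, 3.18 and 2.11 FPKM in diseased Jinsha, and at 5.45, 4.70 and 6.82 FPKM in control Jinlan and 21.2, 17.6 and 22.8 FPKM in control Jinsha. Its log2 difference went from -1.70 (adjusted p = 3.1e-06) to 2.34 (adjusted p = 8.41e-08, SE 0.17 for both, limma).

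**Figure D3:**
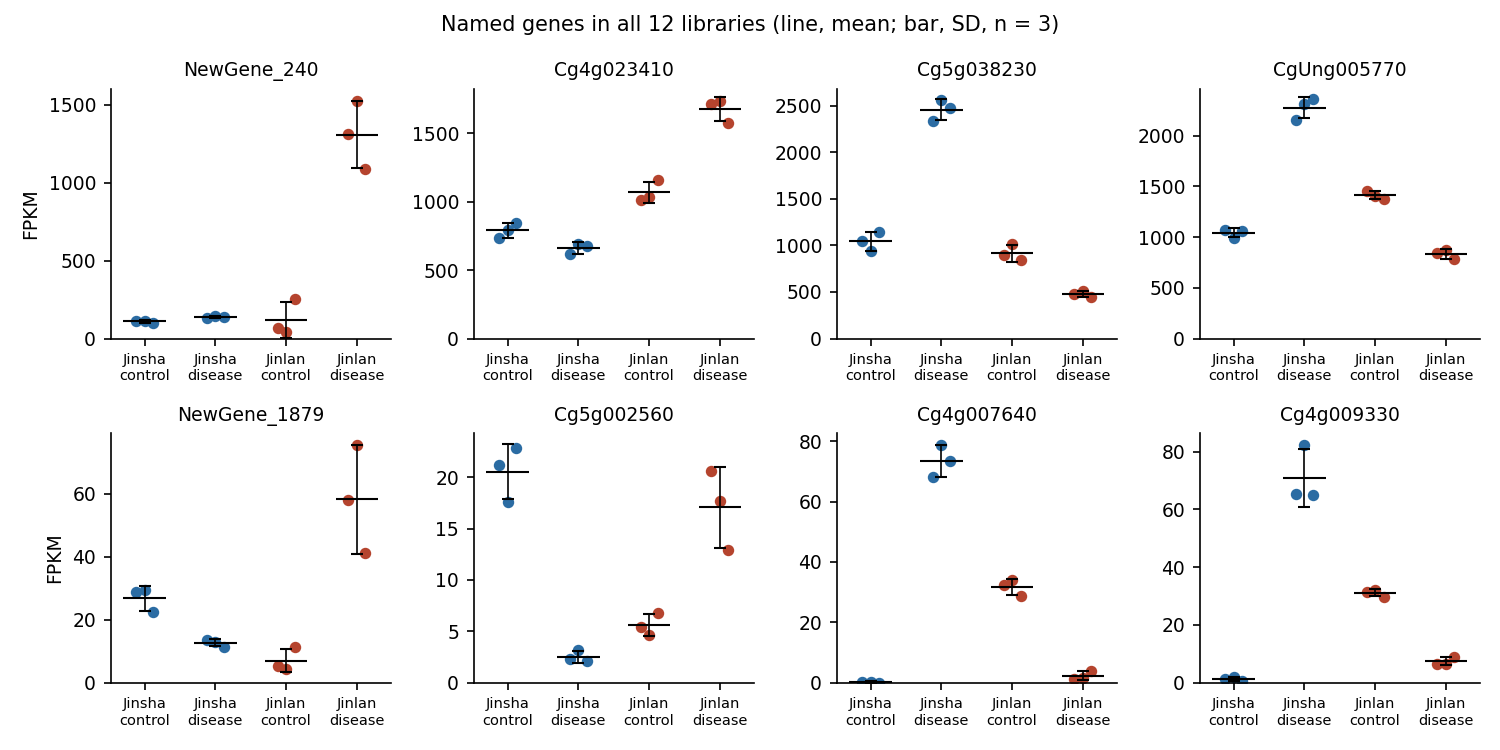
FPKM of the 8 named genes in all 12 libraries, with Jinsha in blue and Jinlan in red. Points are libraries, the long line is the group mean and the bar the SD (n = 3); the upper row holds the genes with the largest FPKM differences in diseased fruit and the lower row genes whose cultivar order is opposite in control and diseased fruit.

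**Figure D4:**
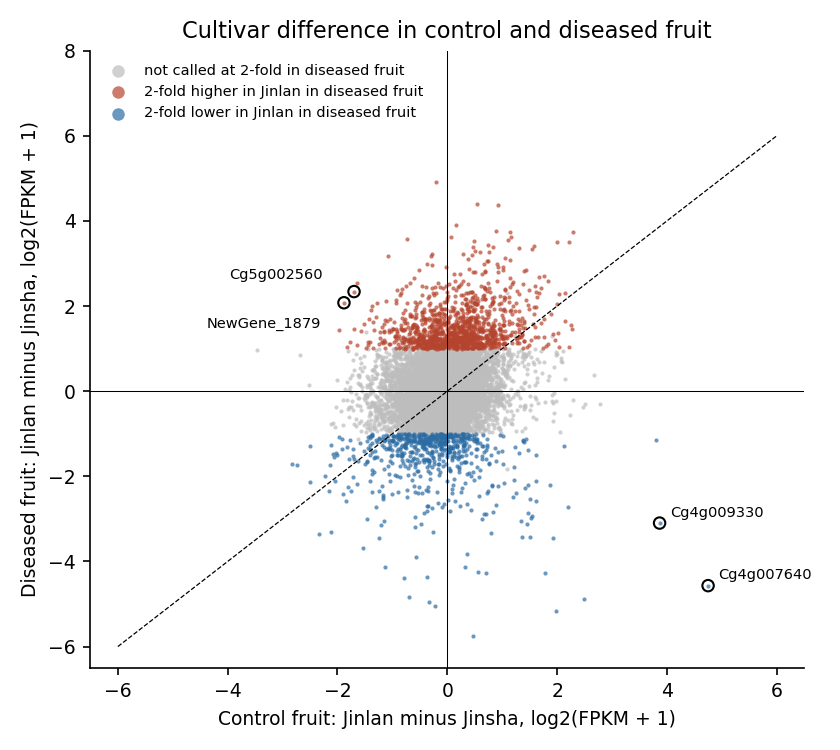
Cultivar difference (Jinlan minus Jinsha, log2 FPKM + 1) in diseased fruit (vertical axis) against that in control fruit (horizontal axis) for 16516 genes. Points on the dashed line have equal differences in both conditions. The median control difference was 0.20 for genes 2-fold higher (red) and -0.28 for genes 2-fold lower (blue) in diseased fruit. In control fruit 34.2% and 29.0% of them were not called, against 41.9% of all tested genes. The 4 circled genes have opposite signs in control and diseased fruit.

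Genes that differed between the cultivars were spread over all groups of identifiers. By the leading part of the identifier, from Cg1g to Cg9g, between 5.82% (Cg9g) and 7.95% (Cg2g) of the tested genes were 2-fold higher in diseased Jinlan and up to 4.55% (Cg9g) lower, with the lowest share for Cg4g (43 of 1433 genes). Identifiers starting with CgUng had 42 of 428 genes higher (9.81%) and 11 lower (2.57%). Those starting with NewGene had 80 of 971 higher (8.24%) and 30 lower (3.09%), at a median level of 4.82 FPKM in diseased fruit against 12.7 FPKM for all tested genes. These shares were not tested against each other.

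Genes with neighbouring identifier numbers often differed in the same direction. Numbers advance in steps of 10, and 914 of the genes 2-fold higher in diseased Jinlan had a tested gene 1 step away. For 242 of them (26.5%) at least 1 such neighbour was also 2-fold higher, against 9.57% of all 13430 tested genes with a tested neighbour, and for 4.38% a neighbour was 2-fold lower, against 5.54%. Of 512 genes 2-fold lower with a tested neighbour, 103 (20.1%) had a neighbour that was also lower and 7.42% one that was higher. The 242 genes formed 111 runs of consecutive identifiers, the longest of 6 genes, and the 103 genes formed 48 runs of up to 4. The table gives no positions or sequences, so it is not known here whether such neighbours are near-identical copies between which sequenced fragments could be divided, and their part in these shares was not tested.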

How the data were processed

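The authors deposited 1 table of FPKM values for 12 libraries. Per the labels' protocols, a Qiagen RNeasy kit gave the RNA and a SMARTER kit the libraries. For the aligner, quantification tool, annotation and build, the sources used here give no name. No counts were used, and low values did not fall on steps worth 1 fragment, so depth is unknown and no counting interval is given. FPKM is relative to all other transcripts of its library. The sum per library was 550055 to 575107 FPKM, and 16054 to 16456 genes reached 1 FPKM.

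Values were transformed to log2(FPKM + 1). In limma 3.58.1 (R 4.3.3) a linear model with a mean for each of the 4 groups took in all 12 libraries, with moderated variances that followed the mean level and Benjamini-Hochberg adjustment over the 16516 genes of each comparison. The fit was tested on simulated data. Plots used matplotlib 3.10.9 (Python 3.11.15).

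Since 0 identifiers could be paired with a name, at most 2 per direction and comparison are named: in diseased fruit those with the largest FPKM difference among 2-fold calls without overlap, and, among genes with opposite 2-fold calls in control and diseased fruit, those with the largest smaller log2 difference. The comparison, lists and rules were chosen with earlier results of these data known. Descriptions by level, library order, presence and identifier were added after the values had been seen. Alternatives were other pseudocounts, filters, scalings, variance models, a test against 2-fold, the replicate block, and libraries left out.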

Additional observations from a re-analysis of the deposited data

Results flagged for a closer look

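The cultivar difference in diseased fruit differed from that in control fruit at any fold for 9793 of the tested genes (59.3%), by the interaction test of limma. At 2-fold it was called upwards for 1474 and downwards for 697. In diseased relative to control fruit the log2 difference between Jinlan and Jinsha was larger by 3.52 for NewGene_240 and by 0.91 for Cg4g023410, and lower for Cg5g038230 (-2.17) and CgUng005770 (-1.88). The genes picked for their opposite differences had interactions of 3.96 (NewGene_1879), 4.04 (Cg5g002560), -9.32 (Cg4g007640) and -6.97 (Cg4g009330), which that choice ensured.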

How the results depend on the processing

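The counts of 2-fold genes depended on how a 2-fold difference was defined. With a pseudocount of 5, 590 genes were higher and 335 lower in diseased Jinlan, 162 and 191 in control Jinlan, and 722 and 386 for the change of the difference with disease. With limma's treat against 2-fold these were 552 and 299, 115 and 110, and 526 and 273. With a pseudocount of 0.1 the control counts were 494 and 761. The genes 2-fold higher, and those lower, in both conditions numbered 214 and 156 with a pseudocount of 0.1, 56 and 43 with 5, and 33 and 26 with treat, and the opposite classes 93 and 58 with 0.1. Under the other filters, scalings and variance models and the fits to the compared groups alone, which could not be made for the interaction, the counts of called genes stayed within 1.5 times those reported. Without the 20 genes of highest mean FPKM, the genes higher in Jinlan took 5.20% of diseased Jinsha, the genes lower took 8.25% of diseased Jinsha and 2.69% of diseased Jinlan, and all others 86.3% of diseased Jinsha. The labels do not say that replicate numbers pair libraries, and same-numbered diseased libraries did not deviate together (r = -0.0217, -0.00489 and 0.0375). Between same-numbered diseased and control libraries r was negative, at -0.0657, -0.152 and -0.186 in Jinlan and -0.027, -0.122 and -0.097 in Jinsha. With the replicate block 1175 genes were 2-fold higher and 620 lower in diseased Jinlan. Leaving out 1 library at a time gave 1133 to 1239 genes 2-fold higher and 604 to 641 lower in diseased fruit, and without both Jinlan replicate 3 libraries 1236 and 642. For NewGene_240 the control difference changed sign to 0.27 without Jinlan control replicate 2, and the difference was called at -1.03 without Jinlan control replicate 3. Depth is unknown, so what it limits at low FPKM cannot be stated.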
